A study of Mus musculus with 12 samples.

Results

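Long intergenic noncoding RNAs (lincRNAs) of the mouse retina were examined for their level and for their divergence between the strains C57BL/6J and Cast/EiJ. The genes were chosen by their annotation as lincRNA on chromosomes 1 to 19 and by their depth, a sum of at least 60 unique hits over the 12 allele columns of the F1 libraries, where a unique hit is a read pair that maps to a single gene and, in a hybrid, to a single allele of it. Of 37991 genes in the tables, 2057 were lincRNAs, 1955 of them autosomal, and 484 lincRNAs met the rule. A further 1466 autosomal lincRNAs were below the threshold, 674 of them with no allele-specific hit at all, and 8 names were left out because they belong to known imprinted domains, of which 5 were lincRNAs over the threshold. The threshold is a measured value, so the level of these genes is a description and not a finding. Just outside it lay Gm15328, Gm17203 and Gm9903 with 59 hits each, and just inside it 1110019D14Rik and BC046401 with 60 hits and 1700113A16Rik with 61. The median of the 484 lincRNAs was 206 hits. The 12509 protein-coding genes set beside them met the same threshold but were deeper, with a median of 1758 hits, so comparisons within classes of depth are given further on.

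The data came from 12 mRNA-seq libraries of whole retina from male mice aged 8 weeks, with 3 libraries per group and 6 to 8 retinas pooled in each. Parental (F0) animals were inbred C57BL/6J or inbred Cast/EiJ. The F1 B6xCast animals had a C57BL/6J father and a Cast/EiJ mother, and the F1 CastxB6 animals the reverse, so that each hybrid carried 1 allele of every autosomal gene from each strain. No group carried a transgene or received a treatment. Polyadenylated RNA was read as pairs from libraries that did not keep the strand, on 1 lane for the F0 and 2 lanes for the F1 libraries. Unique hits per library ranged from 8158534 to 12363291, and the lincRNAs took between 0.852% and 1.43% of them. Marker genes of the retina were present throughout. Their summed levels, in the count equivalents defined below, were 781700 to 785600 for 5 rod genes in F0 C57BL/6J and 791000 to 837200 in F0 Cast/EiJ, and those of 6 retinal pigment epithelium genes were 224.7 to 270.3 and 83.14 to 122.6.

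As a class, lincRNAs are transcribed from their own promoters, are mostly spliced and polyadenylated like messenger RNAs, and encode no known protein. The genes here were taken by annotation alone. Some carry symbols of the kind given to coding genes, such as Abhd1 and Atp10d, with up to 10 and 23 exons. Whether such members encode a protein was not examined. Some act in the nucleus, some are hosts from which small nucleolar RNAs (snoRNAs) or microRNAs are cut, and for most no function is known. Many start near a protein-coding gene, often from the opposite strand of a shared promoter region. In a hybrid both alleles share the same nuclei, so a difference between alleles is carried by the allele itself (a cis difference), whereas a strain difference that the alleles do not show is referred to as trans.

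Sequence was taken for the lincRNAs whose strain and allelic differences were among the largest. The promoter window holds 250 bases before and 50 bases after the annotated 5′ end, read from the NCBI37 genome on the strand of the gene. Gm15983 lies on chr16 with its window at chr16:5254629-5254928 on the plus strand, Gm14268 at chr2:166223638-166223937 on the minus strand, and 4933431E20Rik at chr3:107699082-107699381 on the minus strand. These lincRNAs were lower from the Cast/EiJ allele. Gm12758 at chr7:35019146-35019445 (plus strand) and 4930570G19Rik at chr3:156224661-156224960 (minus strand) were higher from it. Capitals mark TAATCC, the core recognised by the photoreceptor factor CRX, which was present in 1 of these 5 windows.
Gm15983: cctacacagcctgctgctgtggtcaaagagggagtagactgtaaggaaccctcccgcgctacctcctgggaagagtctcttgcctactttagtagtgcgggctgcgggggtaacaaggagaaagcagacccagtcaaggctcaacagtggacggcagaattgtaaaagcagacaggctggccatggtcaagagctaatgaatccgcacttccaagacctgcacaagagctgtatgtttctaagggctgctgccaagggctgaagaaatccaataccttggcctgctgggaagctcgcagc
Gm14268: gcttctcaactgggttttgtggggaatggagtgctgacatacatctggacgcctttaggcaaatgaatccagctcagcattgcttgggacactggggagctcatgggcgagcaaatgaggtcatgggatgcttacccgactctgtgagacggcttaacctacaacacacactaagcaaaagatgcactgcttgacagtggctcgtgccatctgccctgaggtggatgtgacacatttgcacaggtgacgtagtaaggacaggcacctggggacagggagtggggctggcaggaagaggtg
4933431E20Rik: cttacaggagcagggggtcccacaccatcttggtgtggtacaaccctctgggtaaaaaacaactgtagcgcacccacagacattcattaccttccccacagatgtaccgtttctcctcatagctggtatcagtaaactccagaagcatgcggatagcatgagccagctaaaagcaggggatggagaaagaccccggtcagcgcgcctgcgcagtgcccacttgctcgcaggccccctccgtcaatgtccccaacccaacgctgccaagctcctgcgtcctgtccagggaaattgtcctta
Gm12758: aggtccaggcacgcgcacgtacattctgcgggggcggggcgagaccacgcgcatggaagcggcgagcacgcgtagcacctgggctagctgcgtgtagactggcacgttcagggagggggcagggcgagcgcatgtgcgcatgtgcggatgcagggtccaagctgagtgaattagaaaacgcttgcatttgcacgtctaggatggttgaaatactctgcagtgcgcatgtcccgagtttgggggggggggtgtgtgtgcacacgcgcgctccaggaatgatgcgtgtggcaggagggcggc
4930570G19Rik: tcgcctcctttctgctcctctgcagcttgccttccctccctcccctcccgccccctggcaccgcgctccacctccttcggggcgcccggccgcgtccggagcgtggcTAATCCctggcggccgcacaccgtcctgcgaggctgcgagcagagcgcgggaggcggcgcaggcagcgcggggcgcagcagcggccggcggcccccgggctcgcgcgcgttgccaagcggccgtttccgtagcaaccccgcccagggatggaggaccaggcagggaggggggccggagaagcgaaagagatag
The 3 windows of the lower lincRNAs had a GC content of 54.33%, 54.0% and 55.67%, and those of Gm12758 and 4930570G19Rik had 63.33% and 74.67%. The window of Gm17263, which was also higher from the Cast/EiJ allele and is not printed, had 52.33%. GC content thus did not follow direction in these windows. Over all 484 lincRNAs the median GC content of the window was 57.67%, beside 60.33% for the protein-coding genes over the same threshold. TAATCC on either strand was found in 50 windows of lincRNAs (10.3%), beside 6.53% of protein-coding windows and 6.90% of all genes tested. TATAAA, the TATA box core, was found in 48 (9.92%), beside 7.19% and 7.48%. The motifs do not overlap in sequence, a match is not a binding site, and the shares were not tested against each other. Windows with a GC content of at least 50% and an observed to expected CpG ratio of at least 0.6 are called CpG-rich here. They made up 239 of the lincRNA windows (49.4%), beside 63.5% of protein-coding windows.

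Among the lincRNAs 16 span a microRNA gene, 26 microRNA genes in all, of which 21 were matched to mature sequences of RefSeq (GRCm38.p6). The sequences of the best known neural and proliferative microRNAs among them are shown with the seed, bases 2 to 8, in capitals.
miR-9-5p: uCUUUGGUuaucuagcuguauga
miR-17-5p: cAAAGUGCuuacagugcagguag
miR-20a-5p: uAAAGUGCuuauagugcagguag
miR-15a-5p: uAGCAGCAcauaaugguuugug
miR-16-5p: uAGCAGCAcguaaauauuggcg
miR-9-5p lies in both C130071C03Rik and AI854517, miR-17-5p and miR-20a-5p share a seed and lie in Mir17hg, and miR-15a-5p and miR-16-5p share a seed and lie in Dleu2. The levels given here are those of the polyadenylated host RNAs and say nothing of the mature microRNAs.

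Most of the lincRNAs were of low abundance. The level per length is given as the exponential of the deposited natural log expression, a scale like FPKM. Its mean over the 6 F0 libraries had a median of 0.843 over the 484 lincRNAs, with 272 of them under 1 and 32 at 10 or more, beside a median of 7.39 over the deeper protein-coding genes. Malat1, a nuclear speckle RNA, was the most abundant lincRNA, at 595.8, 622.7 and 607.8 in the 3 F0 C57BL/6J libraries and 429.4, 523.5 and 359.7 in the 3 F0 Cast/EiJ libraries. It was followed by A930011O12Rik, the host of Mir124a-1, at 352.6, 238.3 and 222.4 and at 243.2, 207.8 and 162.2. All Malat1 values of F0 C57BL/6J lay above those of F0 Cast/EiJ, whereas the A930011O12Rik values of the strains overlapped. Next came Gm14290 (mean 218.7 ± 5.93, SD, n = 3, in F0 C57BL/6J) and E130218I03Rik (198.1 ± 13.4), both known by clone or model names. Snhg12, a snoRNA host, had a level of 29.2 ± 1.52 and 30.9 ± 2.40 in the respective strains (SD, n = 3 each). Malat1 alone held a large part of the lincRNA hits. Without it, the lincRNAs made up 0.563% to 0.684% of the unique hits in F0 C57BL/6J, 0.470% to 0.536% in F0 Cast/EiJ and 0.754% to 0.899% in the F1 libraries. F1 hits must map to a single allele, and the lincRNAs were chosen by them, so the F0 and F1 shares are unlike measures. In count equivalents the sums without Malat1 were 74430 to 91050 in F0 C57BL/6J and 62250 to 71580 in F0 Cast/EiJ. They were 70860 to 84410 in the F1 libraries, taken as the mean of both alleles.

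The first comparison, between the F0 strains, asks which genes differ when the whole genome is of one strain or the other. More lincRNAs were lower in Cast/EiJ than higher. Values were tested as log2(count equivalents + 1) with limma, where a count equivalent is the estimated and normalised number of read pairs of a gene. A total of 14452 autosomal genes reached 10 count equivalents in 3 or more of the 6 F0 libraries and entered the test. An adjusted p under 0.05 (Benjamini-Hochberg over all genes tested) was taken as a call. Of the 484 lincRNAs, 422 passed the filter and 62 did not. Of the 422, 191 were called (45.3%), 149 lower and 42 higher in Cast/EiJ, beside 33.8% of all genes tested, of which 16.6% were lower and 17.2% higher. The median log2 fold change of the 422 was −0.42, beside 0.03 for both all genes and protein-coding genes. This median includes lincRNAs that could pass only by being high in 1 strain. Because 49 lincRNAs passed the filter through the C57BL/6J libraries alone, and 46 of these were called, all lower, the counts depend in part on the filter. Another 3 passed through the Cast/EiJ libraries alone, 2 of them called higher. Among the 370 that reached the minimum in libraries of both strains, 143 were called, 103 lower and 40 higher, with a median log2 fold change of −0.29. That median was 0.03 over the 12124 protein-coding genes with at least 60 F1 unique hits that met the same condition. The share of all genes called under this condition was not taken. Of 100 lincRNAs whose mean reached 100 count equivalents, 52 were called, 34 lower and 18 higher, beside 33.26% of all genes and 32.28% of protein-coding genes with that mean, and their median log2 fold change was −0.22 beside 0.06 for those protein-coding genes. EdgeR on the unique hits called 208 of the 422, 166 lower and 42 higher, beside 37.1% of all genes, 20% lower and 17.1% higher. The 3 values of each strain did not overlap in 245 lincRNAs, 185 with Cast/EiJ lower and 60 with it higher, beside 48.0% of all genes without overlap, 22.7% lower and 25.3% higher. Differences in these shares between lincRNAs and protein-coding genes were not tested.

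For each library the median was taken, over the lincRNAs, of the log2 deviation from the gene's own mean over the 12 libraries. Over the 422 it was 0.32, 0.16 and 0.09 in the 3 F0 C57BL/6J libraries and −0.23, −0.16 and −0.33 in the 3 F0 Cast/EiJ libraries, and it lay between 0.02 and 0.13 in the 6 F1 libraries. Over the 370 lincRNAs that reached the minimum in both strains, the values were smaller, at 0.24, 0.12 and 0.03 in F0 C57BL/6J, −0.15, −0.08 and −0.27 in F0 Cast/EiJ and 0.01 to 0.12 in the F1 libraries. The 3 F0 Cast/EiJ libraries were the lowest in both sets, and some F1 libraries lay above F0 C57BL/6J replicate 3. The same medians over protein-coding genes lay between −0.02 and 0.02 in all 12 libraries. F0 C57BL/6J replicate 1 was the library farthest above 0. Without it 159 lincRNAs were called, 114 lower and 45 higher. Genes annotated as antisense, another noncoding class, were lower in Cast/EiJ in 63 of 77 calls among 153 tested. Of the marker lists, cone genes summed to 10220 to 12140 count equivalents in F0 C57BL/6J and 7070 to 8250 in F0 Cast/EiJ, ganglion cell genes to 8662 to 9749 and 5984 to 6833, and amacrine cell genes to 10590 to 11700 and 13740 to 14590. Of the 4 genes in each list, 1 cone gene and 2 ganglion cell genes were called lower and 3 amacrine cell genes higher. A sum can thus rest on few genes. Of 4 Mueller glia genes 2 were called lower, and of 4 bipolar cell genes 1 higher and 1 lower. The part of cell composition in the lincRNA shift was not tested, and in bulk retina fewer cells of a type and less RNA per cell cannot be told apart.

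**Figure D1:**
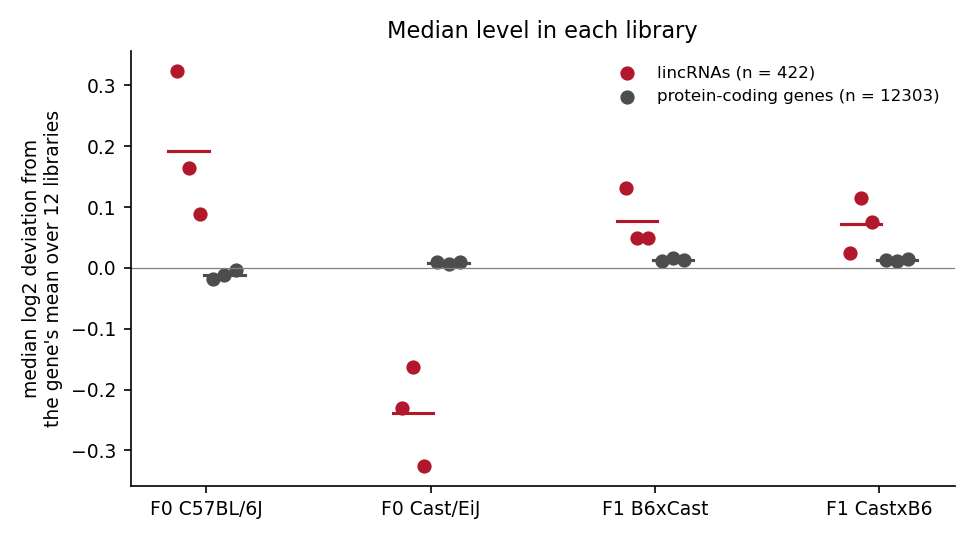
Median log2 deviation of 422 lincRNAs (red) and 12303 protein-coding genes (grey) that passed the F0 filter, 49 of the lincRNAs through C57BL/6J alone, from each gene's mean over the 12 libraries, with 1 point per library, bars at the group mean, and the 4 groups along the horizontal axis. The lincRNA points of F0 C57BL/6J lie between 0.09 and 0.32 and those of F0 Cast/EiJ between −0.33 and −0.16, while the protein-coding points stay within −0.02 and 0.02.

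The second comparison, between the alleles of the F1 hybrids, asks for differences that remain when both genomes share the same cells. Every one of the 484 lincRNAs was polymorphic and was tested, in 1 limma model over all 12 libraries with the F1 library as a block, fitted over 13414 polymorphic autosomal genes with at least 60 F1 unique hits. Of the 484, 259 were called (53.5%), 165 lower and 94 higher from the Cast/EiJ allele, beside 47.0% of all genes tested, of which 23.5% were lower and 23.5% higher. Their median log2 ratio of the Cast/EiJ over the C57BL/6J allele was −0.16, beside 0.00 for all genes, and their median absolute log2 ratio was 0.51, beside 0.19 for the protein-coding genes, which were deeper. EdgeR on the unique hits called 247, 158 lower and 89 higher, beside 45.4% of all genes, 22.6% lower and 22.8% higher. A gene can pass the depth threshold through the hits of 1 allele. With at least 30 hits required on each allele, 409 lincRNAs remained and 198 were called (48.4%), 121 lower and 77 higher, beside 45.58% of all genes. In 170 lincRNAs the 6 values of the Cast/EiJ allele and the 6 of the C57BL/6J allele did not overlap, 109 with Cast/EiJ lower and 61 with it higher, beside 25.5% of all genes without overlap, 13.1% lower and 12.5% higher. Tested in each cross by itself, 199 lincRNAs were called in F1 B6xCast (41.1%) and 182 in F1 CastxB6 (37.6%), beside 34.4% and 33% of all genes. Of the 154 called in both (31.8%, beside 25.1% of all genes), 153 had the same direction, as did 98.54% of all genes called in both, the exception being Gm17559, described below.

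The allelic ratios of the lincRNAs had the larger median in each of 5 depth classes, while their calls were not more frequent in each. In classes that began at 60, 120, 300, 1000 and 3000 F1 unique hits, the share of lincRNAs called between the alleles was 42.55%, 50.68%, 62.61%, 71.19% and 47.62%, over 141, 148, 115, 59 and 21 genes respectively. The shares of protein-coding genes in those classes were 42.55%, 45.57%, 45.44%, 45.69% and 49.29%. The median absolute log2 ratio of the lincRNAs was 0.61, 0.58, 0.54, 0.39 and 0.18, beside 0.55, 0.40, 0.26, 0.18 and 0.14 for protein-coding genes. In the F0 comparison the shares of lincRNAs were 34.09%, 43.17%, 52.17%, 54.24% and 42.86%, beside 28.94%, 30.34%, 31.99%, 31.07% and 35.08%. Between 300 and 3000 hits, the lincRNA and protein-coding shares were farthest apart, and in the lowest class they were equal for the alleles. The share of allelic calls that were lower from Cast/EiJ was 68.33% in the lowest class and 50% in the highest. With at least 30 hits on each allele, the lowest class held 85 lincRNAs with an allelic share of 21.18%, beside 24.51% of protein-coding genes, and its F0 share was 21.31% of 61, beside 19.35%.

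**Figure D2:**
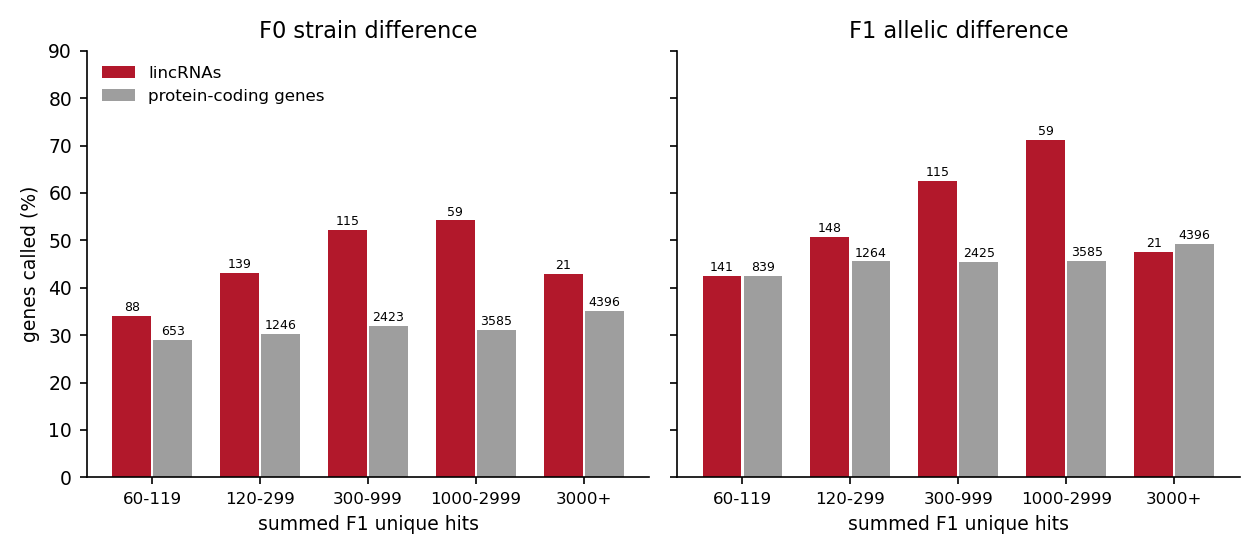
Percentage of lincRNAs (red) and protein-coding genes (grey) called at an adjusted p under 0.05 in 5 classes of summed F1 unique hits, for the F0 strains on the left and the F1 alleles on the right, with the number of genes above each bar. In the class from 1000 to 3000 hits 71.19% of lincRNAs and 45.69% of protein-coding genes were called between the alleles, and in the class from 60 to 120 hits both stood at 42.55%.

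The share of unique hits that carried the Cast/EiJ allele describes the same divergence without a model. Its median was 46.97% over the lincRNAs and 49.52% over the deeper protein-coding genes. In 408 lincRNAs (84.3%) it lay between 25% and 75%, beside 96.3% of protein-coding genes. Extreme shares leaned to 1 side. A Cast/EiJ share of at most 10% was found in 16 lincRNAs (3.31%) and of at least 90% in 4 (0.826%), beside 0.560% and 0.576% of protein-coding genes. In 5 lincRNAs, named after their values were seen, no hit carried the Cast/EiJ allele. They were Gm11342 with 0 of 763 hits, which allows a share of up to 0.393%, Gm11754 with 0 of 282 (up to 1.06%), A930031H19Rik with 0 of 184 (up to 1.63%), Gm11345 with 0 of 78 (up to 3.85%) and C130046K22Rik with 0 of 68 (up to 4.41%). These limits, 3 hits of the total, and the interval given below for Gm15983 cover counting error only, since read pairs without molecular identifiers are not independent molecules. Gm11342 and Gm11345 both overlap Cmah, the gene of the enzyme that makes N-glycolylneuraminic acid, on the opposite strand. Gm11342 averaged 138 ± 17.1 count equivalents (SD, n = 3) in F0 C57BL/6J, and F0 Cast/EiJ was at least 46-fold lower, with 3 count equivalents taken as the floor. Cmah was higher from the Cast/EiJ allele by 2.36 (adjusted p = 9.7e-06), opposite in direction to Gm11342. A hit counts for an allele only where it covers a known polymorphism.

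Gm15983 had the largest F0 difference among the lincRNAs named by rule, on chr16:5254879-5289714 of the plus strand, where it overlaps Fam86 on the opposite strand. Its count equivalents were 435, 434 and 375 in F0 C57BL/6J and 1.09, 2.96 and 3.30 in F0 Cast/EiJ. The hybrids' C57BL/6J allele ranged from 193 to 327 and the Cast/EiJ allele never exceeded 2.20. The groups were far apart with no overlap in parents or hybrids. The log2 difference was −6.98 (SE 0.29, adjusted p = 3.6e-07) between the strains and −7.17 (SE 0.25, adjusted p = 4.1e-13) between the alleles, values that depend on the pseudocount of 1. Taking 3 count equivalents as the floor in each library, the Cast/EiJ allele was at least 81.1-fold lower, and 5 of 1060 hits (0.472%, Wilson 95% interval 0.202 to 1.10) carried it. Fam86 itself differed by −0.26 between the alleles (adjusted p = 0.0097).

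Gm14268, on chr2:166206328-166223687 of the minus strand and far from the nearest coding gene, Prex1, had 283, 241 and 240 count equivalents in F0 C57BL/6J and 0.00739, 2.68 and 3.31 in F0 Cast/EiJ. Its C57BL/6J allele ranged from 277 to 337 in the F1 libraries and its Cast/EiJ allele from 2.87 to 8.53. Here too the low values were all Cast/EiJ, and 39 of 2117 hits carried that allele. The allelic log2 ratio was −5.61 (SE 0.26, adjusted p = 2.5e-11). 4933431E20Rik, which overlaps Gstm5, a glutathione transferase gene, had 473, 451 and 466 against 47.6, 45.9 and 33.4 in the F0 libraries. Its alleles averaged 532 ± 28.2 and 21.4 ± 8.87 (SD, n = 6 each), a log2 ratio of −4.67 (SE 0.18, adjusted p = 2.5e-12), so the allelic difference exceeded that of the strains (log2 −3.44) by 1.23 (adjusted p = 0.021). Gm16867, which spans chr14:69981561-70162426 and overlaps Entpd4, a nucleotide hydrolase gene, had log2 differences of −3.77 in F0 and −3.26 between the alleles (adjusted p = 3.6e-07 and 3e-12), and Entpd4 differed by −0.71 between the alleles (adjusted p = 3.6e-10). In libraries without strand, reads of overlapping opposite genes cannot be told apart.

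Fewer lincRNAs were strongly higher from Cast/EiJ. Gm12758, opposite to the coding gene 4931406P16Rik on chr7, had 140, 128 and 123 count equivalents in F0 C57BL/6J and 177, 298 and 314 in F0 Cast/EiJ. Its alleles stood at 82.6 to 126 and 348 to 406. All Cast/EiJ values were above all C57BL/6J values, and the log2 differences were 0.96 (SE 0.21, adjusted p = 0.0073) and 1.88 (SE 0.11, adjusted p = 2.4e-10). 4930570G19Rik starts 48 bp from Negr1, a neuronal adhesion gene, in the opposite direction. It had 149, 139 and 112 against 280, 290 and 242 in the parents, and 80.3 to 127 against 331 to 424 for the alleles, without overlap. Its allelic log2 ratio was 1.86 (SE 0.09, adjusted p = 6.9e-11), while that of Negr1 was −0.23 (adjusted p = 0.0034), so the pair of opposite genes at this start differed in direction. Gm17263, opposite to Bcat1, an amino acid transaminase gene, and B230354K17Rik, which starts 145 bp from the splicing factor gene Cdc5l, had log2 ratios of 1.13 and 0.90 between the alleles (adjusted p = 7.2e-09 and 2.2e-09) and 1.0 and 1.07 between the strains. For 4930581F22Rik the alleles differed by 1.09 (adjusted p = 4.1e-05) and the strains by 0.08 (adjusted p = 0.78), with a difference between both of −1.01 (adjusted p = 0.035).

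**Figure D3:**
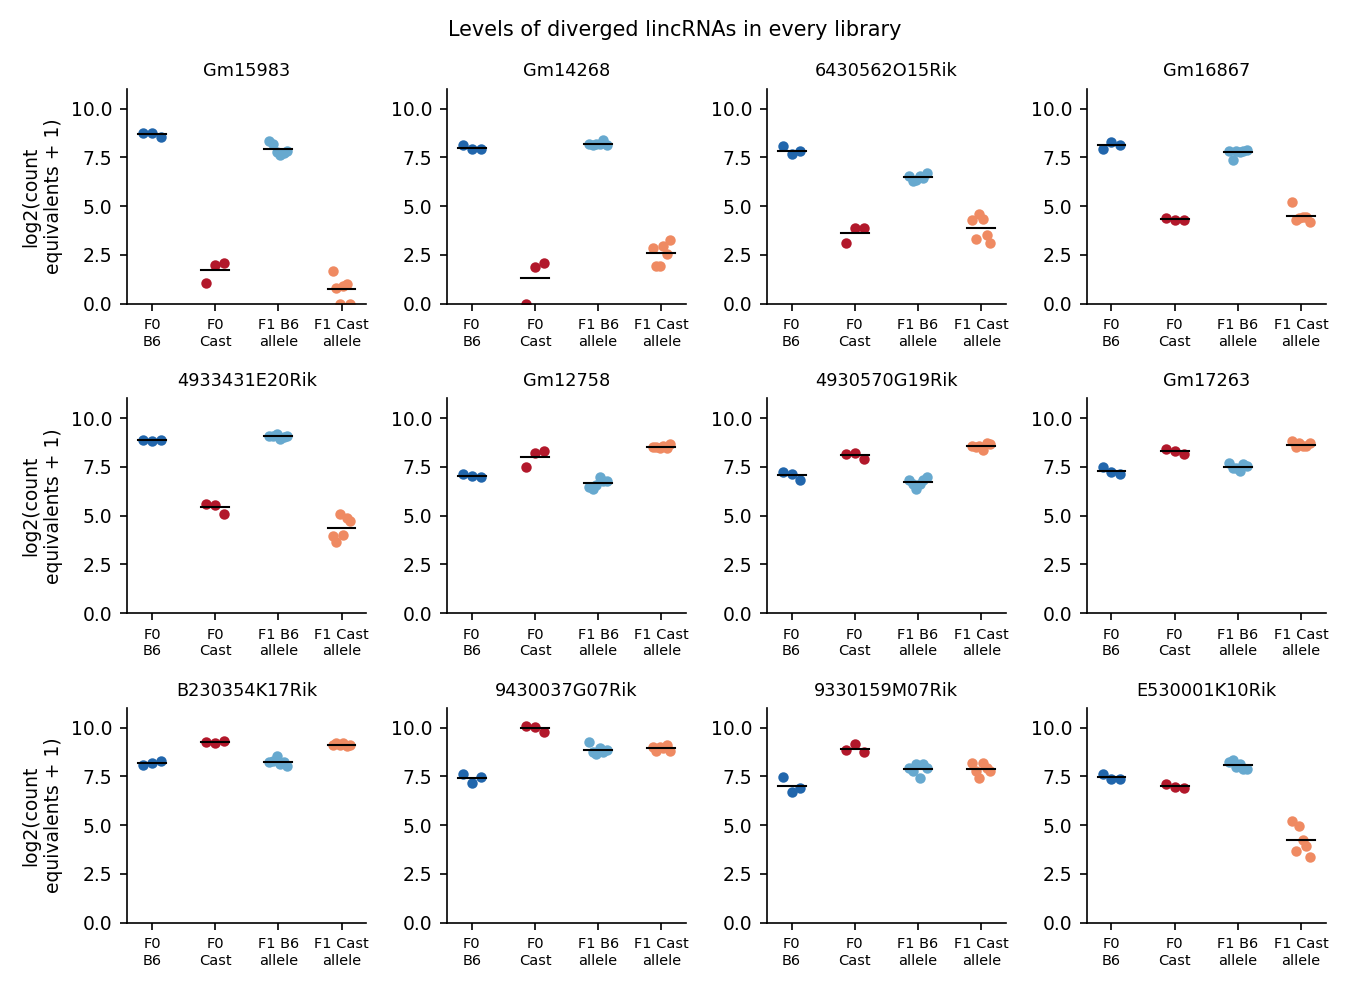
Log2 of count equivalents plus 1 for 12 lincRNAs, with 1 point per F0 library (3 per strain) or per allele of an F1 library (6 per allele) and a line at the mean. Gm15983 and Gm14268 are low in every Cast/EiJ column, Gm12758 and 4930570G19Rik are higher in the Cast/EiJ columns, and 9430037G07Rik and 9330159M07Rik differ between the F0 strains, with overlapping alleles and allelic log2 ratios of 0.08 and −0.02.

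Strain and allelic differences mostly pointed the same way. Of the 422 lincRNAs tested in both comparisons, 153 were called in both (36.3%), beside 23.4% of the 13055 genes tested in both. Of the 153, 149 had the same direction (97.4%), 116 lower and 33 higher in Cast/EiJ, beside 94.8% of all genes called in both. A further 38 were called between the F0 strains alone (9%), 79 between the alleles alone (18.7%) and 152 in neither (36%), beside 9.86%, 23.7% and 43% of all genes. Across the 422 lincRNAs the log2 differences correlated with Pearson's r = 0.77 and Spearman's rho = 0.78, beside 0.73 and 0.60 across 12303 protein-coding genes. These are correlations across genes, which are not independent, and both quantities come from the same laboratory strains. In F0 the directions were not alike in size over the 422 lincRNAs. LincRNAs called lower between the alleles had a median allelic log2 ratio of −1.03 and a median F0 fold change of −1.35. Those called higher had 0.94 and 0.51, and those not called had −0.02 and −0.27. Protein-coding genes had −0.42 and −0.34 when called lower between the alleles and 0.37 and 0.29 when called higher. The 422 include 49 lincRNAs that passed the F0 filter, but not through Cast/EiJ libraries, and 46 of these were called lower in F0. The medians were not taken over the 370 that reached the minimum in both strains, so the part of the filter was not tested.

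**Figure D4:**
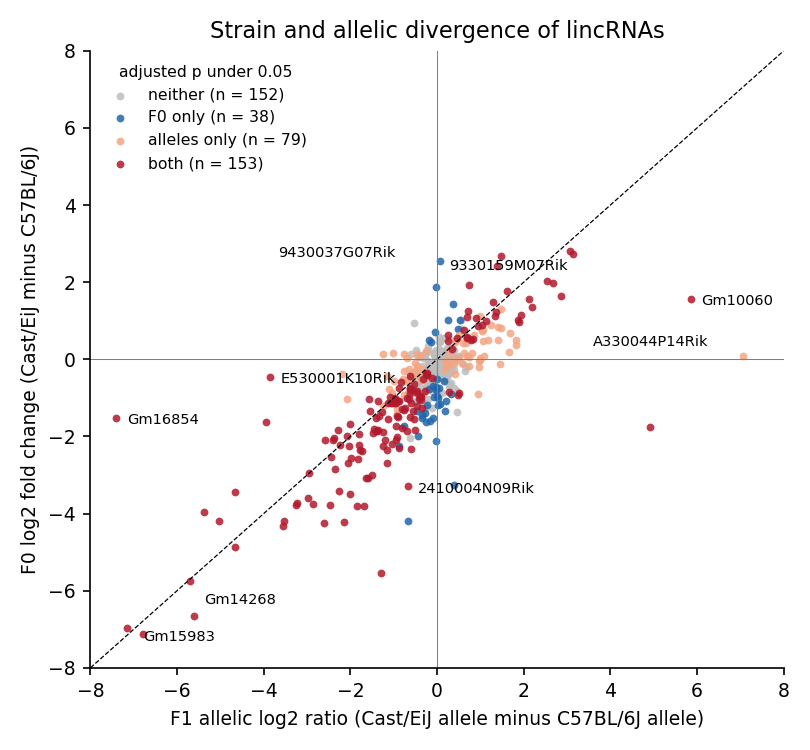
Log2 fold change between the F0 strains against the F1 allelic log2 ratio, both Cast/EiJ minus C57BL/6J, for 422 lincRNAs coloured by where they were called, with the line of equality dashed. Of the points, 153 were called in both comparisons, 38 in F0 only, 79 between the alleles only and 152 in neither, and A330044P14Rik and Gm16854 lie far from the line.

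The trans effect, taken as the F0 difference minus the allelic difference in the same model, was called for 85 of the 484 lincRNAs (17.6%), 70 of them negative and 15 positive, beside 14% of all genes tested, of which 8.31% were negative and 5.64% positive. EdgeR on the unique hits called 88, 75 negative and 13 positive, beside 16.8% of all genes, 11.2% negative and 5.61% positive. The median over the lincRNAs was −0.29. For a single gene, a negative trans effect and the shift of the F0 libraries described above cannot be told apart. Of the 85, 30 had no allelic call, 33 had an allelic difference of opposite sign and 22 of the same sign. The largest upward F0 fold changes among the lincRNAs named by rule belonged here. 9430037G07Rik, on chr9:88490163-88494354 and with a snoRNA inside, had 196, 142 and 174 count equivalents in F0 C57BL/6J and 1090, 1050 and 869 in F0 Cast/EiJ. Its alleles overlapped, at 396 to 611 for C57BL/6J and 437 to 553 for Cast/EiJ. The strains thus differed by a log2 of 2.55 (SE 0.14, adjusted p = 1.7e-06), the alleles by 0.08 (SE 0.10, adjusted p = 0.56), and the trans effect was 2.48 (SE 0.18, adjusted p = 1e-07). 9330159M07Rik lies close by on chr9:88736636-88753691 and also holds a snoRNA. It had 176, 102 and 120 against 458, 561 and 430 in the parents and overlapping alleles at 172 to 282 and 168 to 290, with a trans effect of 1.90 (SE 0.27, adjusted p = 1.6e-04). The Cast/EiJ share of unique hits was 50.9% in 9430037G07Rik and 45.5% in 9330159M07Rik. Their F1 libraries held 59.99% and 41.88% as many hits as their F0 libraries, below the median of 188% over the 484 lincRNAs.

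Negative trans effects included 6430562O15Rik, opposite to Mrps27, a mitochondrial ribosome gene, and Gm16862 on chr17:45871455-45925543. 6430562O15Rik had 266, 203 and 224 against 7.59, 13.6 and 13.5 in the parents, and 75.8 to 102 against 7.66 to 23.2 for the alleles. The Cast/EiJ values were the low ones in both settings, but the log2 difference was −4.24 between the strains and −2.61 between the alleles, with a trans effect of −1.63 (adjusted p = 0.0099). For Gm16862 these values were −3.08, −1.58 and −1.50 (adjusted p of the trans effect 3.8e-04).

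Several lincRNAs differed far more between the alleles than between the strains, and in 3 of them the F1 libraries held few hits beside the F0 libraries. E530001K10Rik, which holds Mir670, had 199, 161 and 163 count equivalents in F0 C57BL/6J and 138, 123 and 120 in F0 Cast/EiJ, but 230 to 327 for the C57BL/6J allele and 9.15 to 35.5 for the Cast/EiJ allele. Its F0 libraries held 122 unique hits on average and its F1 libraries 26.7. Gm16854 had 380, 338 and 340 against 97.1, 150 and 123 in the parents, while its Cast/EiJ allele was near 0 in 4 of 6 libraries and reached 20.9. It had 196 hits per F0 library and 23.2 per F1 library, 137 on the C57BL/6J and 2 on the Cast/EiJ allele. Gm10060 went the other way, with 181, 231 and 196 against 509, 689 and 612 in the parents and alleles of at most 51.0 for C57BL/6J and of 570 to 713 for Cast/EiJ. The trans effects of these 3 lincRNAs were 3.41, 5.87 and −4.29 (adjusted p = 6.3e-06, 0.0020 and 0.013), but the last 2 depended on the scale. With the deposited log expression the effect of Gm16854 was 13.23 and that of Gm10060 −6.15, neither called (adjusted p = 0.064 and 0.26). The call of Gm16854 was also lost with posterior SD weights (3.76, adjusted p = 0.084) and that of Gm10060 with a pseudocount of 0.1 (−4.92, adjusted p = 0.072). A330044P14Rik and Gm17445, named after their values were seen, also differed more between the alleles. A330044P14Rik stood at 43.4, 45.2 and 43.4 and at 34.9, 76.2 and 37.6 in the parents, with no call (log2 0.08, adjusted p = 0.86), whereas 5 of 1006 F1 hits were on the C57BL/6J allele and the Cast/EiJ allele was at least 68.3-fold higher. Gm17445 was lower in F0 Cast/EiJ (log2 −1.77, adjusted p = 0.0062) but had 4 hits on the C57BL/6J and 165 on the Cast/EiJ allele. F1 hits per library were 21.8%, 11.8% and 14.8% of F0 hits for E530001K10Rik, Gm16854 and Gm10060 and 461% and 225% for A330044P14Rik and Gm17445, beside a median of 188% over the 484 lincRNAs. The part of this ratio in the values was not tested.

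Hosts of snoRNAs were the longest of the 4 lists of known lincRNAs. The list was made of 19 names, of which 16 were in the tables and 10 met the rule. Of these 10, 5 were lower and 1 higher in F0 Cast/EiJ, with a median log2 fold change of −0.71, and 4 were lower and 2 higher between the alleles, with a median of −0.21, beside medians of 0.03 and 0.00 over all genes tested, 33.8% and 47.0% of which were called. Gm11974, 0610007N19Rik and 2410004N09Rik had a negative trans effect. Snhg5, which holds 2 snoRNAs, was higher in Cast/EiJ. Its F0 values were 124, 148 and 123 against 188, 185 and 214 count equivalents, and its alleles 131 to 161 against 219 to 250, without overlap. The log2 differences were 0.57 (SE 0.13, adjusted p = 0.0096) and 0.70 (SE 0.07, adjusted p = 4.2e-07).

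2410004N09Rik, known as Epb41l4aos, showed the widest gap of the hosts between the parents, with 69.9, 60.3 and 62.9 count equivalents in F0 C57BL/6J and 6.89, 2.27 and 10.4 in F0 Cast/EiJ. Its alleles stood at 50.7 to 67.5 and 29.9 to 43.9, so the Cast/EiJ allele of the hybrids was well above the Cast/EiJ parents and below the C57BL/6J allele. The strains differed by −3.29 (SE 0.43, adjusted p = 5.2e-04), the alleles by −0.68 (SE 0.21, adjusted p = 0.014), and the trans effect was −2.61 (adjusted p = 2e-04). Without F1 CastxB6 replicate 3 the allelic difference was −0.57 (adjusted p = 0.073). Gm11974 (Snhg15) followed the same order, with log2 differences of −1.84 and −0.51 and a trans effect of −1.33 (adjusted p = 5.8e-04, 0.0084 and 0.0029), the allelic call being lost without F1 CastxB6 replicate 2 (adjusted p = 0.067). 9430008C03Rik (Snhg17) differed alike in both settings, by −1.09 and −0.91 (adjusted p = 0.0048 and 5.1e-06), the F0 call being lost with posterior SD weights and without a filter on low values (adjusted p = 0.080 and 0.070). 0610007N19Rik (Snhg18) was lower in F0 Cast/EiJ by −1.18 (adjusted p = 0.0023), with alleles at −0.23 (adjusted p = 0.15) and a trans effect of −0.95 (adjusted p = 0.0098).

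Snhg7 had 114, 118 and 111 against 58.7, 56.6 and 51.8 count equivalents in the parents, a fall by 1.03 on the log2 scale (adjusted p = 7.7e-04). Its allelic difference of −0.41 (adjusted p = 0.0062) changed sign to 0.01 with the deposited log expression. 2810008D09Rik (Snhg20) was at −0.39 in F0 (adjusted p = 0.21) and 0.42 between the alleles (adjusted p = 0.041), a call lost in 7 alternatives, 4 of which left out 1 library. The libraries were F1 B6xCast replicates 2 and 3 (adjusted p = 0.064 and 0.10) and F1 CastxB6 replicates 1 and 2 (adjusted p = 0.12 and 0.10). Snhg1, Snhg4 and Snhg12 had no call, with log2 differences of 0.31, −0.32 and 0.02 between the strains and 0.23, −0.20 and 0.13 between the alleles.

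**Figure D5:**
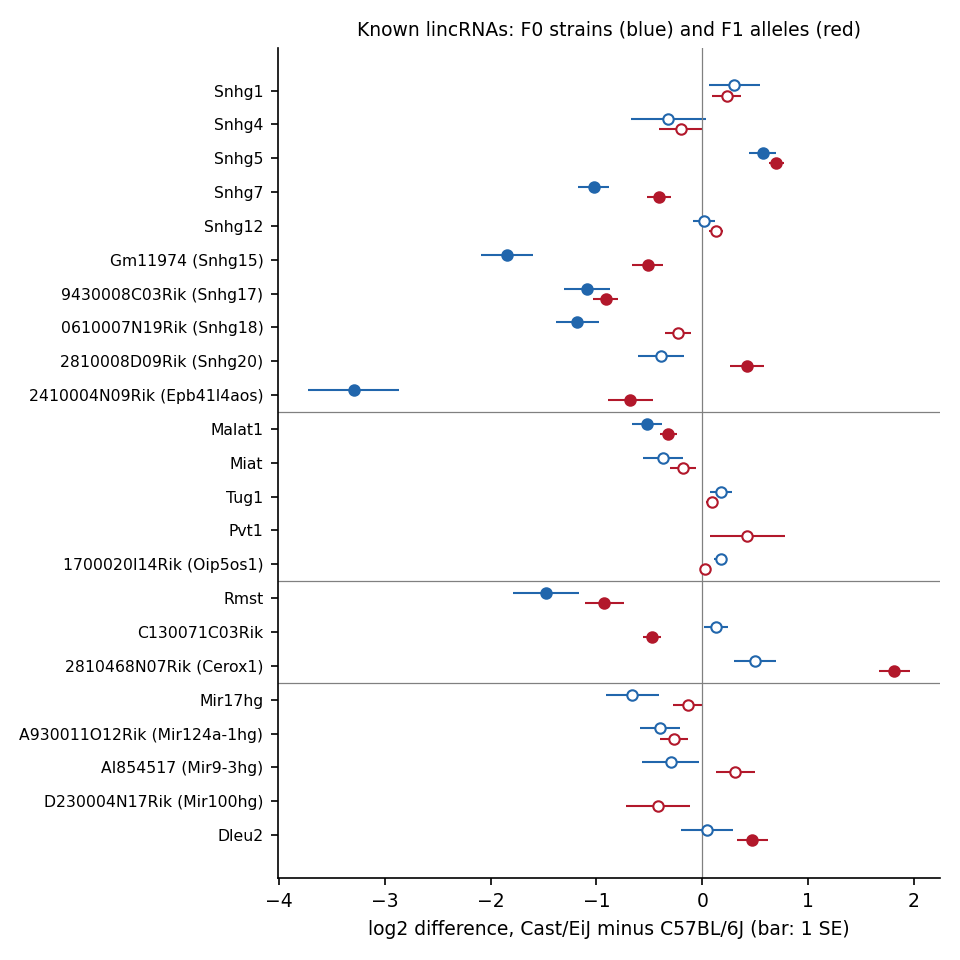
Log2 difference, Cast/EiJ minus C57BL/6J, of the lincRNAs in the 4 lists of known genes, for the F0 strains in blue and the F1 alleles in red, with bars of 1 SE and filled points where the adjusted p was under 0.05. 2410004N09Rik (Epb41l4aos) has the largest strain difference at −3.29 with alleles at −0.68, and 2810468N07Rik (Cerox1) the largest allelic difference at 1.81.

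Of 15 names of nuclear and chromatin lincRNAs, 14 were in the tables and 5 met the rule, of which 4 were tested in F0. Of all genes tested, 33.8% were called in F0 and 47.0% between the alleles. Malat1 was the one of the list that limma called, lower from Cast/EiJ in both settings. It had 76800, 84300 and 81900 count equivalents in F0 C57BL/6J against 51200, 71300 and 48900 in F0 Cast/EiJ. In every F1 library its Cast/EiJ allele was below its C57BL/6J allele, at 48400 to 63700 against 56400 to 80100. The log2 differences were −0.52 (SE 0.14, adjusted p = 0.022) and −0.32 (SE 0.08, adjusted p = 0.0038). The strain call was lost without F0 C57BL/6J replicate 2 or 3 (adjusted p = 0.075 and 0.058) and without F0 Cast/EiJ replicate 1 or 3 (adjusted p = 0.080 and 0.088), with the deposited log expression (adjusted p = 0.053) and without a filter on low values (adjusted p = 0.99), at log2 values between −0.52 and −0.42 in these fits, while the allelic call held in every alternative tried. 1700020I14Rik, known as Oip5os1 or Cyrano, differed by 0.17 (SE 0.06, adjusted p = 0.057) and 0.03 (SE 0.03, adjusted p = 0.44), both called with posterior SD weights (adjusted p = 0.022 and 0.025). Limma with a replicate block also called its strain difference (adjusted p = 0.019). Tug1, whose loss impairs photoreceptor development, was at 0.18 and 0.09 (adjusted p = 0.21 and 0.22, but 0.021 in F0 with a replicate block). Miat was at −0.37 and −0.18 (adjusted p = 0.16 and 0.25, but 0.048 in F0 without F0 C57BL/6J replicate 3 and 0.026 between the alleles with differences within libraries). Pvt1, not tested in F0, was at 0.43 between the alleles (adjusted p = 0.34).

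Of 17 names of neural and retinal lincRNAs, 13 were in the tables and 3 met the rule. All 3 had an allelic call, beside 47.0% of all genes tested, and 3 genes are too few to describe the class. Rmst, a neuronal differentiation RNA that binds SOX2, had 39.3, 53.7 and 47.0 against 10.3, 23.7 and 16.6 count equivalents in the parents and 37 to 48.2 against 15.7 to 34.3 for the alleles. The Cast/EiJ values were the lower ones with no overlap, at log2 differences of −1.48 (adjusted p = 0.0070, and 0.077 without a filter on low values) and −0.92 (adjusted p = 6.2e-04). C130071C03Rik, a host of miR-9, was lower from the Cast/EiJ allele, with 431 to 633 against 687 to 946 (log2 −0.47, adjusted p = 2.2e-04), but stood at 0.13 between the strains (adjusted p = 0.42). 2810468N07Rik (Cerox1), a cytoplasmic RNA linked to mitochondrial complex I, had 40.9, 33.6 and 36.9 against 50.2, 61.7 and 46.9 in the parents. Its Cast/EiJ allele stood at 67.4 to 101 and its C57BL/6J allele at 16 to 27.9. The alleles thus differed by 1.81 (SE 0.15, adjusted p = 2.5e-08), the strains by 0.49 (adjusted p = 0.085), and the trans effect was −1.32 (adjusted p = 0.0030). Sox8, a transcription factor gene that starts 230 bp away in the opposite direction, was also higher from the Cast/EiJ allele, by 0.53 (adjusted p = 3.6e-06).

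Of the 16 lincRNAs that span a microRNA gene, 5 of the 13 tested in F0 were called there and 8 between the alleles. The shares of all genes tested were 33.8% and 47.0%. The list of known microRNA hosts was narrower. Of its 15 names, 9 were in the tables and 5 met the rule. In the limma fit reported no F0 difference was called among the 4 tested, 1 having an unadjusted p under 0.05. EdgeR on the unique hits called 1, Mir17hg, and DESeq2 called 0. Counts over 4 and 5 genes are too few to set against the shares of all genes. Limma called 1 allelic difference among the 5, that of Dleu2, the host of miR-15a and miR-16-1. Dleu2 stood at 28.9 to 43.5 for the C57BL/6J allele and 34.9 to 56.4 for the Cast/EiJ allele, overlapping values with a log2 ratio of 0.47 (SE 0.15, adjusted p = 0.015), which lost its call without F1 B6xCast replicate 2 (adjusted p = 0.086) or F1 CastxB6 replicate 1 (adjusted p = 0.092). A930011O12Rik, host of Mir124a-1, was at −0.40 (SE 0.19, adjusted p = 0.14) and −0.27 (SE 0.13, adjusted p = 0.11), with its C57BL/6J allele the higher in each of the 6 F1 libraries. The allelic difference was called by limma on differences within each library (adjusted p = 5.1e-05) and by edgeR (adjusted p = 0.020). With a replicate block limma called both the strain and the allelic difference of A930011O12Rik (adjusted p = 0.0021 and 0.035). Mir17hg, host of the miR-17 to miR-92 cluster, was at −0.66 and −0.14 with limma. Its F0 difference was called by edgeR (−0.69, adjusted p = 0.035) and by limma without F0 Cast/EiJ replicate 2 (−0.85, adjusted p = 0.049). AI854517 was at −0.30 and 0.31, its allelic difference being called without F1 B6xCast replicate 1 (0.53, adjusted p = 0.023).

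Among the remaining abundant lincRNAs, Gm14290 and E130218I03Rik were lower in F0 Cast/EiJ by nearly the same amount, −0.48 (SE 0.06, adjusted p = 4.4e-04) and −0.52 (SE 0.09, adjusted p = 0.0020). Their alleles were closer, at −0.12 (SE 0.03, adjusted p = 0.0051) and −0.01 (SE 0.05, adjusted p = 0.95), and both had a trans effect, −0.36 and −0.51 (adjusted p = 6.9e-04 and 0.0014). E130218I03Rik had 3850, 3380 and 3810 count equivalents in F0 C57BL/6J and 2840, 2380 and 2490 in F0 Cast/EiJ, while its alleles overlapped throughout at 3710 to 4310 and 3640 to 4320. A530058N18Rik was higher from the Cast/EiJ allele by 0.20 with limma (adjusted p = 0.0031) and by 0.11 with edgeR, without a call (adjusted p = 0.11). Limma made no call for BC033916 or AI480526. EdgeR called BC033916 lower in Cast/EiJ, by −0.33 between the strains and −0.12 between the alleles (adjusted p = 0.0055 and 0.034), and DESeq2 also called it between the strains (adjusted p = 0.0078).

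Most lincRNAs lay next to a coding gene. Of the 484, 403 were within 5000 bp of one. Of these, 257 overlapped it on the opposite strand, 15 overlapped it on the same strand and 94 started head to head with it. Of 387 with a neighbour that was tested, 109 were called between the alleles together with the neighbour, 62 of these in the same direction. For head to head pairs the counts were 30 of 93 and 20. Between the alleles 53.5% of the lincRNAs and 46.69% of the protein-coding genes were called each by themselves, so many joint calls arise without any link. No share over other pairs of genes was taken, and these counts show no link between neighbours. Across pairs the allelic log2 ratios of lincRNA and neighbour correlated with r = 0.245 for head to head pairs (n = 93) and −0.05 for opposite overlapping ones (n = 251), values that are across genes and carry no test. LincRNAs with a CpG-rich start, 84 of which were head to head with a coding gene, had an allelic call in 136 of 239 (56.9%), and those with another start, 10 of them head to head, in 123 of 245 (50.2%), beside 45.5% and 49.43% of all genes tested with such starts. The median exonic length was 2400 bp with a median of 3 exons, beside 3887 bp and 9 exons for protein-coding genes. Allelic calls were made for 108 of 204 lincRNAs with 2 exons (52.9%) and 149 of 274 with more (54.4%), shares that were not tested against each other.

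Parent of origin was compared last, as the maternal minus the paternal allele over both crosses, a comparison that separates imprinting from strain. With limma 1 of the 484 lincRNAs was called, beside 0.492% of all genes tested (66 of 13414), and edgeR on the unique hits also called 1, beside 0.298%. The limma calls of all genes were lower from the maternal allele in 0.313% and higher in 0.179%, those of edgeR in 0.209% and 0.0895%. It was Gm17559, on chr2:152520469-152522428 of the minus strand, inside H13 on the opposite strand. H13, which encodes a signal peptide peptidase, is a known imprinted gene, so the description of these lincRNAs as outside imprinted domains does not hold for Gm17559, since the rule left out genes by name alone. In F1 B6xCast its paternal C57BL/6J allele had 6.19, 5.03 and 2.85 count equivalents and its maternal Cast/EiJ allele 23.5, 24.5 and 24.1. In F1 CastxB6 its maternal C57BL/6J allele had 13, 17.4 and 14.2 and its paternal Cast/EiJ allele 10.3, 3.12 and 9.53. The maternal allele was the higher in each of the 6 libraries. The log2 difference was 1.59 (SE 0.25, adjusted p = 0.0026) on 88 hits in all, and H13 itself differed by 1.05 (SE 0.05, adjusted p = 1.4e-10). Reads of Gm17559 and H13 cannot be told apart by strand, and whether the value of Gm17559 is that of H13 reads was not tested.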

How the data were processed

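The members and gene lists were chosen with earlier results of these data known. The authors trimmed reads with Trim Galore 0.2.6, mapped them with Bowtie 0.12.9 (versions also in the submitters' processing notes) to the transcripts of Ensembl release 67 (NCBI37), written for each strain or for both in the hybrids, and ran MMSEQ on the alignments. They deposited, per gene and library or allele, a signal value called count equivalents, which the authors had normalised and which carries 3 significant digits, the natural log of expression, which the authors estimated per transcript length, its posterior SD, and unique hits, an unnormalised count deposited for each column. The deposited results of the authors' own model comparisons and 36 further columns were not used.

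F0 differences were tested with limma (trend) on log2(count equivalents + 1) in the 6 F0 libraries. Allelic, trans and parent-of-origin differences came from 1 limma fit over all 12 libraries in which each F1 library was a block, at a consensus correlation of 0.1354. Adjusted p-values are Benjamini-Hochberg values over all genes tested. On the scale of log2(value + 1) a fold change understates the change of low genes. The fits were tested on simulated data. Alternatives were edgeR and DESeq2, other pseudocounts and filters, the deposited log expression with and without weights, differences within libraries, a replicate block and each library left out in turn. Because the replicates are pools of retinas, the p-values measure the spread between pools. The share of hits of Gm15983 carries a Wilson 95% interval, and other shares are printed without one. Genes named were those of 4 lists, the 10 of highest level, the 5 largest called changes in each direction (3 for trans) whose mean reached 100 count equivalents and, for strain and alleles, no overlap, every parent-of-origin call and the 3 on either side of the threshold; others are said to be named after their values were seen. Sequences were read from NCBI37 and RefSeq. Tools were R 4.3.3, limma 3.58.1, edgeR 4.0.16, DESeq2 1.42.0, statmod 1.5.0, Python 3.11.15, numpy 2.4.6, pandas 2.3.3, scipy 1.17.1 and matplotlib 3.10.9.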

Additional observations from a re-analysis of the deposited data

Results flagged for a closer look

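Gm17559 stood out because its allelic difference turned round between the reciprocal crosses. The Cast/EiJ allele was higher in F1 B6xCast, where it is maternal, with a log2 ratio of 2.18 (adjusted p = 1.3e-04, limma), and lower in F1 CastxB6, where it is paternal, with −1.0 (adjusted p = 0.039). The maternal minus paternal log2 difference over both crosses was 1.59 (SE 0.25, adjusted p = 0.0026), and the maternal allele was the higher in 6 of 6 libraries. It was called in 21 of 22 alternatives, with log2 values from 1.15 to 1.78 and adjusted p from 0.0012 to 0.21, the last from limma on differences within each library. The gene rests on 88 unique hits. With 3 libraries a group, no test for a single deviating library was made.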

How the results depend on the processing

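The direction of the counts, with more lincRNAs lower than higher in Cast/EiJ between the strains, between the alleles and as trans effects, was kept in every alternative tried. F0 calls moved from 191 to 77 of 157 lincRNAs whose mean reached 50 count equivalents, where fewer genes were tested, and to 96 without a filter on low values, 93 of them shared, for which the cause was not tested. Allelic calls moved from 259 to 126 of 195 lincRNAs with at least 300 hits, where again fewer were tested. Parent-of-origin calls, 1 in the fit reported, were 0 with at least 300 hits and with differences within libraries, 2 with a pseudocount of 0.1, 3 with the deposited log expression, and 1 to 3 with 1 library left out, 3 being without F1 B6xCast replicate 3. In the class from 60 to 120 hits, requiring 30 hits on each allele moved the share called from 34.09% to 21.31% in F0 and from 42.55% to 21.18% between the alleles, and the cause was not tested. With 1 library left out, F0 calls ranged from 149 to 173, allelic calls from 231 to 268 and trans calls from 68 to 89. EdgeR on unique hits made 208 F0, 247 allelic and 88 trans calls. A530058N18Rik moved in F0 from −0.06 to 0.32 with the deposited log expression and 0.33 with its weights, and Snhg7 between the alleles from −0.41 to 0.012 and 0.082. Over 81 log2 values of 46 named lincRNAs, 1553 alternatives kept sign and call, 28 lost a call and 20 gained one. The fits reported did not pair libraries by replicate number. Deviations of libraries with the same number correlated at 0.33, 0.03 and 0.14 in F0 and −0.12, −0.04 and −0.01 in F1. A replicate block gave 213 F0, 258 allelic, 86 trans and 1 parent-of-origin calls. It added F0 calls for A930011O12Rik, Tug1 and 1700020I14Rik and an allelic call for A930011O12Rik. With 1 to 3 hits on an allele, ratios are bounded by depth.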
